A study of Mus musculus with 6 samples.

Results

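Long intergenic noncoding RNA genes (lincRNA genes) were examined in the pancreas of mice that lack OCaR1 and of wild-type mice. The members were the rows of the deposited gene table that carry the biotype lincRNA and that the authors tested, which gave 85 of 11478 tested genes and of 12016 rows. A further 3 lincRNA rows were not tested by the authors, and the segment of chromosome 1 next to the targeted gene, which the selection leaves out, held 0 tested lincRNA rows. RNA came from the pancreas of 3 male OCaR1-/- mice and 3 male wild-type mice aged 3 weeks, without treatment. The labels' protocol gives the wild-type mice as C57Bl6/N, and the strain field, spelled C56Bl6/N, is the same for both genotypes. OCaR1 is the product of Tmem63a, as background knowledge that the labels do not give, and Tmem63a stood at 4.91 FPKM in the knockout group, against 18.3 FPKM in the wild-type group. How the null allele was made, and from how many litters the mice came, is not given in the sources used here.

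Levels are in FPKM, a read count divided by transcript length and by library size, so that genes of different length can be compared. The authors give 1 FPKM value per genotype that combines 3 mice, so no value of a single mouse, no SD and no overlap of the groups can be shown. Only the authors' own Cuffdiff test bears on whether a difference exceeded the spread between mice, and a gene is called where its q is under 0.05. Fold changes are knockout over wild type. The number of reads behind each value is unknown. In whole tissue, fewer cells of a type and less RNA per cell cannot be told apart.

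LincRNAs are transcripts that are spliced and polyadenylated much like messenger RNAs but have no long open reading frame, and their genes lie between protein-coding genes. Some act in the nucleus as scaffolds or on neighbouring genes, some are kept mainly as hosts from whose introns small nucleolar RNAs or microRNAs are cut, and for most no role is known. In the pancreas, whose RNA is dominated by the messages of acinar digestive enzymes, they form a small part of the total.

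The label was checked against GENCODE release M21 of the same build, GRCm38, in which 84 of the 85 genes were found. There, 70 are still lincRNA genes and 14 have another type: 4 are transcribed from a bidirectional promoter, 3 are antisense genes, 3 processed transcripts, and the remaining ones are a sense intronic gene, a transcribed unitary pseudogene, a transcribed unprocessed pseudogene and a protein-coding gene (Kantr). Of the 84 genes, 67 overlap no protein-coding gene in that annotation, 13 overlap a coding gene on the opposite strand, 3 on the same strand and 1 on both strands. The longest annotated transcript has a median of 1774.5 bases (132 to 20771 bases) and a median of 2 exons, and in 21 genes it has 1 exon. The interval of 36 of the 85 genes is also that of another row, so that reads there may have been divided among genes. Since the use of strand is not given, reads of a lincRNA gene and of a gene on the opposite strand cannot be told apart where they overlap.

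The knockout and wild-type groups differed in 7 lincRNA genes. Neat1, Mirg, Gm4419 and AW112010 rose, and 1810008I18Rik, Snhg6 and Cep83os fell. The authors' deposited table thus called 8.24% of the lincRNA genes, against 7.54% of all tested genes and 7.92% of protein-coding genes. By direction, 4 lincRNA genes (4.71%) were called higher and 3 (3.53%) lower, against 4.2% and 3.35% of all tested genes and 4.35% and 3.57% of protein-coding genes. These shares lie near the background. At an unadjusted p under 0.05 the same table held 17 lincRNA genes (20%), against 17.5% of all tested genes.

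Windows around the start of RefSeq transcripts, from 250 bases before to 50 bases after it, are shown for 4 called genes (RefSeq sequences, build GRCm38.p6), 2 called higher and 2 called lower, so that sequence at the RefSeq starts of genes called in opposite directions can be compared. The window of Mirg is left out because its RefSeq start lies inside the deposited interval and not at its end. That of AW112010 is at the end of the deposited interval (11050566) but inside the longer M21 gene given below. The window of Gm4419 spans the start of its deposited interval (21417911) but also lies inside the longer M21 gene (21417323 to 21421064). Each is written 5′ to 3′ on the strand of the gene. Capitals mark matches, on either strand, to 4 short motifs: TATAAA (the TATA box), GGGCGG (the core of the GC box), TGATGNAA (the core of the composite element to which ATF4 and C/EBP factors bind) and CAGCTG (an E-box).
Gm4419: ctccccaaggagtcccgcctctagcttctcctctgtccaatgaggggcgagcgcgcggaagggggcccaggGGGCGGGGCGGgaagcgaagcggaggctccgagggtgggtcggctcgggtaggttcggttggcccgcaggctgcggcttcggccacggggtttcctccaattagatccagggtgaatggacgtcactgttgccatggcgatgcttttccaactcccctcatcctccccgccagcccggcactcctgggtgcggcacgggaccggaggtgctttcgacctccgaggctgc
AW112010: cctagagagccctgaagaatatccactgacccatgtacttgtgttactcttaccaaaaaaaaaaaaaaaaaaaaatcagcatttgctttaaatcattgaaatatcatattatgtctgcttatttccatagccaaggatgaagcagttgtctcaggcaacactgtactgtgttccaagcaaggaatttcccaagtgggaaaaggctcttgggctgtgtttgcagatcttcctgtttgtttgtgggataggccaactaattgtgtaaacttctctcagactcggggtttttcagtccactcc
1810008I18Rik: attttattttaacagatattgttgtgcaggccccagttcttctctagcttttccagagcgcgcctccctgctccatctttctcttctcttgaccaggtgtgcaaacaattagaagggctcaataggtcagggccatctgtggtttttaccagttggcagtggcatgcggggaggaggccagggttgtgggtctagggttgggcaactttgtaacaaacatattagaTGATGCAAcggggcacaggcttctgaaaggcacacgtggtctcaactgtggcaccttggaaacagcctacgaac
Cep83os: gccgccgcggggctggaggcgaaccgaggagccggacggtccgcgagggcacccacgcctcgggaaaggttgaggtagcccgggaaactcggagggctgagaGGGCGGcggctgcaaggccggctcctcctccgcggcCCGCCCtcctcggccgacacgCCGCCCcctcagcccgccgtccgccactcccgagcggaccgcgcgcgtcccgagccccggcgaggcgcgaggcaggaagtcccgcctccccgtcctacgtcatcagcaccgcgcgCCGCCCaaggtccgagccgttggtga

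These windows lie on chromosome 12 from 21417632 to 21417931 for Gm4419 (plus strand), on chromosome 19 from 11050517 to 11050816 for AW112010 (minus strand), on chromosome 7 from 65802787 to 65803086 for 1810008I18Rik (plus strand) and on chromosome 10 from 94688564 to 94688863 for Cep83os (minus strand). The windows of Cep83os and Gm4419 are rich in CpG, with 46 and 26 CpG dinucleotides and a GC content of 76.7% and 68%. AW112010 has 1 CpG and 40% GC, and 1810008I18Rik has 6 CpG and 50% GC. The median over 32851 RefSeq windows was 7 CpG and 52.7% GC, and over the 51 lincRNA genes with a window it was 15 CpG and 55.7% GC. GC boxes were found in the windows of Cep83os (4 matches) and Gm4419 (2 overlapping matches); 35.7% of all windows and 28 of the 51 lincRNA windows hold at least 1. The window of 1810008I18Rik holds a match to TGATGNAA that begins 24 bases before the start. That motif occurs in 3.97% of all windows and in 1 of the 51. TATAAA (13.6% of all windows, 6 of the 51) and CAGCTG (16.3%, 9 of the 51) were in none of the 4 windows. A match is a run of letters and does not show that a factor binds there. The window of Cep83os shares 276 bases with that of Cep83, the coding gene that starts on the other strand.

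Nuclear scaffold RNAs gave the highest levels. Neat1, the RNA around which nuclear paraspeckles are built (chromosome 19, 5824708 to 5845478, minus strand), stood at 187 FPKM in the knockout group, against 96.3 FPKM in the wild-type group. It was the most abundant lincRNA in both groups and had rank 145 among all tested genes in the knockout group and rank 278 in the wild-type group. Neat1 rose 1.95-fold, a log2 fold change of 0.96, with q = 0.00152 in the authors' deposited table. It shares its interval with 3 other rows. Neat1 has a short polyadenylated and a long form that is not polyadenylated, and libraries selected for poly(A) favour the short one; the gene value does not separate them. Malat1, an abundant RNA of nuclear speckles whose gene lies next to Neat1, stood at 71.7 FPKM in the knockout group and 59.5 FPKM in the wild-type group and missed the threshold in the authors' deposited table (q = 0.636). Malat1 also lacks a regular poly(A) tail, and it shares its interval with 2 other rows. The level of Neat1 was 2.61 times that of Malat1 in the knockout group and 1.62 times in the wild-type group; the difference between these ratios was not tested. Of the 5 tested members of the list of nuclear RNAs, all biotypes included, the authors' deposited table called Neat1 higher and none lower. That is 1 of 5, beside 7.54% of all tested genes. The others were Gas5 (207 FPKM in the knockout group and 224 FPKM in the wild-type group), Firre (16.3 and 14.7 FPKM) and Tug1 (5.20 and 5.36 FPKM). The list median was 0.15 on the log2 scale, beside -0.03 over all tested genes.

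**Figure D1:**
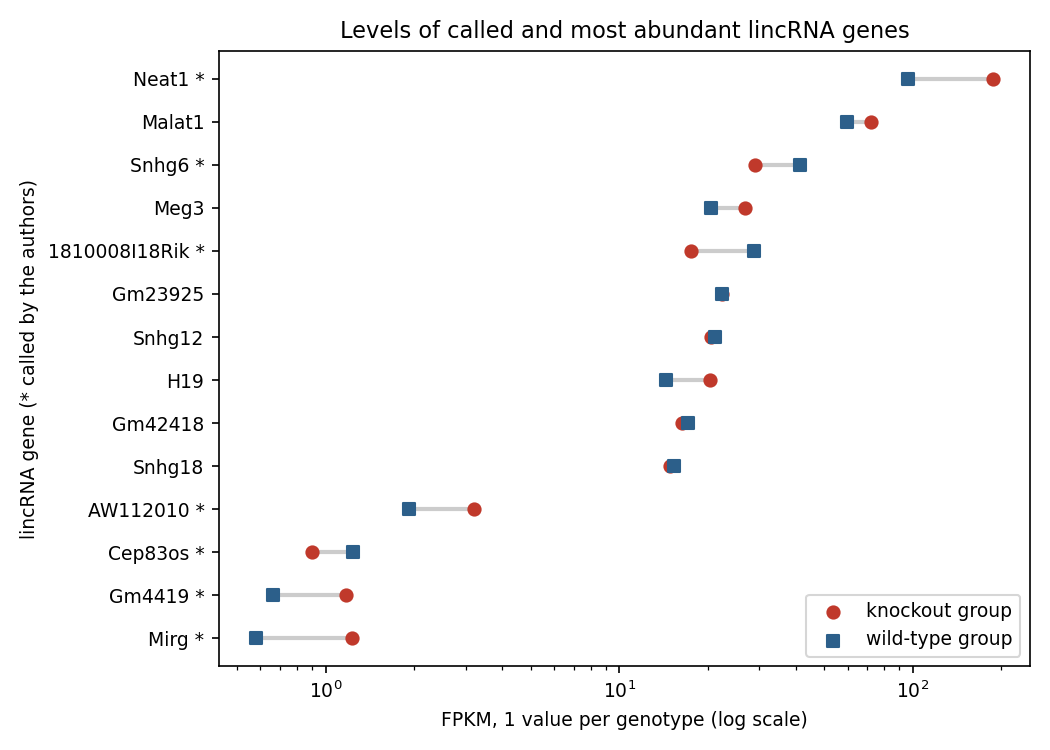
FPKM of the 7 called and the 10 most abundant lincRNA genes in the knockout group (red circles) and the wild-type group (blue squares), 1 value per genotype on a log axis; asterisks mark genes called in the authors' deposited table. Neat1 has the highest level in both groups (187 FPKM in the knockout group and 96.3 FPKM in the wild-type group), and Gm4419, Cep83os and Mirg, all called, lie at the low end.

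Meg3, Rian and Mirg, the long noncoding RNAs of the imprinted Dlk1 to Dio3 domain in the table, and their coding partner Dlk1 had higher values in the knockout group. In that domain on chromosome 12, the noncoding RNAs are transcribed from the maternal chromosome and Dlk1, which encodes a membrane protein of the Notch ligand family, from the paternal one. Mirg, a host of microRNAs (109729764 to 109749460), had 1.23 FPKM in the knockout group and 0.579 FPKM in the wild-type group. It rose 2.13-fold, with q = 0.0453 in the authors' deposited table. Its log2 fold change of 1.09 was 0.50 with a pseudocount of 1 FPKM, and it shares its interval with 4 other rows. Meg3 had 26.8 FPKM in the knockout group and 20.6 FPKM in the wild-type group (log2 fold change 0.38, q = 0.210 in the authors' deposited table). Rian, a host of small nucleolar RNAs that the table labels a processed transcript, had 20.3 FPKM in the knockout group and 13.9 FPKM in the wild-type group (log2 fold change 0.54, q = 0.172 in the authors' deposited table). Neither Meg3 nor Rian was called, and both share their interval with another row. Dlk1 had 3.31 FPKM in the knockout group and 1.57 FPKM in the wild-type group and was called 2.11-fold higher (q = 0.00152 in the authors' deposited table). The table also holds 12 rows of small RNAs between Dlk1 and the end of Mirg, of which 6 had the higher value in the knockout group and 6 the lower. Of these rows 9 were listed at 0 in a genotype, and the authors tested 1, which was not called. Mir410, within Mirg, had 7.53 FPKM in the knockout group and 9.17 FPKM in the wild-type group, and Mir770, within Meg3, was listed at 0 in the knockout group and had 10.4 FPKM in the wild-type group.

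In the imprinted H19 and Igf2 domain on chromosome 7 neither gene was called. H19, a maternally expressed RNA, had 20.3 FPKM in the knockout group and 14.5 FPKM in the wild-type group (log2 fold change 0.49, q = 0.125 in the authors' deposited table). Igf2, the paternally expressed growth factor gene of the domain, had 10.1 FPKM in the knockout group and 6.49 FPKM in the wild-type group (log2 fold change 0.64, q = 0.126 in the authors' deposited table). Of the 6 tested noncoding genes of the imprinted list, the authors' deposited table called Mirg higher and none lower. That is 1 of 6, beside 7.54% of all tested genes. Airn stood at 2.14 FPKM in the knockout group and 1.80 FPKM in the wild-type group, and Snhg14 at 1.74 and 1.86 FPKM. The list median was 0.44 on the log2 scale. Beside 4.2% of all tested genes, fibroblast and stellate cell markers were called higher in 4 of 8 genes in the same knockout group. Their summed level was 447 FPKM in the knockout group and 342 FPKM in the wild-type group. Islet markers were called higher in 9 of 9 genes, with 4114 FPKM in the knockout group and 2564 FPKM in the wild-type group. None of these markers was listed at 0 in either group, and their part in the values of the imprinted genes was not tested.

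**Figure D2:**
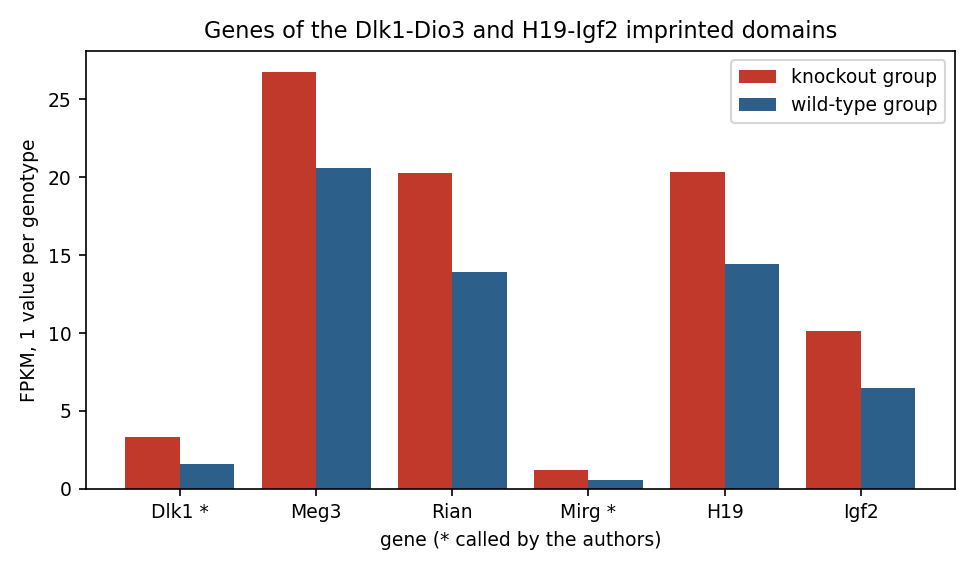
FPKM of Dlk1, Meg3, Rian and Mirg and of H19 and Igf2, the genes described in the Dlk1 to Dio3 and the H19 and Igf2 domains, 1 value per genotype, with the knockout group as red bars and the wild-type group as blue bars; asterisks mark genes called in the authors' deposited table. The 6 genes shown stand higher in the knockout group, while Snhg14, an imprinted RNA of another domain that is not shown, stood lower (1.74 FPKM in the knockout group and 1.86 FPKM in the wild-type group). Dlk1 (3.31 FPKM in the knockout group and 1.57 FPKM in the wild-type group) and Mirg (1.23 and 0.579 FPKM) were called.

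MicroRNA hosts are shown with the microRNAs that RefSeq places inside them on the same strand, since these mature forms are what the host RNA is cut into. Poly(A) libraries measure the host and not the mature microRNA, whose level is not known from these data. Capitals mark the seed, bases 2 to 8 from the 5′ end, by which a microRNA pairs with its targets. Gm12082 holds the hairpins of miR-216a and miR-217, which are known as microRNAs of acinar cells. Mir142hg holds that of miR-142a, a microRNA of blood cells. Of the 26 mature forms within Mirg, miR-410-3p and miR-382-5p are given as examples. Mir17hg holds the cluster of miR-17 to miR-92a, which promotes growth in many tissues.
miR-216a-5p: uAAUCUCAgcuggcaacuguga
miR-217-5p: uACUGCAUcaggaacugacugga
miR-142a-5p: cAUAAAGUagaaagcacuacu
miR-142a-3p: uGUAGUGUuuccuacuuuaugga
miR-410-3p: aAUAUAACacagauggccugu
miR-382-5p: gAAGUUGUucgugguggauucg
miR-17-5p: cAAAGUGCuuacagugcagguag
miR-20a-5p: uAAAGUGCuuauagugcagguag
miR-19a-3p: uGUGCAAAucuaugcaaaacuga
miR-19b-3p: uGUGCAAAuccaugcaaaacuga
miR-92a-3p: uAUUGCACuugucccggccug

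Within Mir17hg, miR-17-5p and miR-20a-5p share the seed AAAGUGC, and miR-19a-3p and miR-19b-3p share GUGCAAA. The 11 mature forms of that host carry 9 different seeds, and the 26 of Mirg carry 25. No seed was shared between miR-216a-5p, miR-217-5p, miR-142a-5p and miR-142a-3p. In all, 11 of the 85 lincRNA genes hold a RefSeq microRNA hairpin on their strand. Of these, the authors' deposited table called 1 of 11, Mirg, higher and none lower, beside 7.54% of all tested genes. In 10 of the 11 the higher value was in the knockout group. Among genes with a fold change this held for 61.9% of lincRNA genes and 44.8% of all tested genes. The median log2 fold change of the 11 hosts was 0.36, beside 0.14 for all lincRNA genes. Mirg, Mir142hg and Mir17hg exceed 1 FPKM in the knockout group only, and Gm27028 in the wild-type group only. They are in the table through the group in which they are higher. The grouping of hosts was made after the values were seen, and 3 of the hosts (Mirg, Meg3 and H19) are the imprinted genes described above.

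Among the other hosts, Gm12082 (chromosome 11, 28751633 to 28815767, plus strand) had 3.43 FPKM in the knockout group and 2.21 FPKM in the wild-type group without a call in the authors' deposited table (log2 fold change 0.63, q = 0.118). Gm12082 shares its interval with 2 other rows. Mir17hg had 1.23 FPKM in the knockout group and 0.958 FPKM in the wild-type group (q = 0.196 in the authors' deposited table). Mir142hg had 1.502 FPKM in the knockout group and 0.338 FPKM in the wild-type group. That is the largest fold change of all 84 lincRNA genes with a fold (4.44-fold), and yet q was 0.658 in the authors' deposited table. Mir142hg shares its interval with the row of the microRNA Mir142b, which was not tested and had 1.97 FPKM in the knockout group and 4.49 FPKM in the wild-type group. With a pseudocount of 1 FPKM the log2 fold change of Mir142hg was 0.90, in place of 2.15. The only host with the lower value in the knockout group was Gm27028, with 0.733 FPKM in the knockout group and 1.02 FPKM in the wild-type group. In the list of microRNA hosts of all biotypes, 5 genes were tested and the authors' deposited table called 1, beside 7.54% of all tested genes. This was the processed transcript Mir22hg, which rose to 5.40 FPKM in the knockout group, against 2.74 FPKM in the wild-type group (q = 0.0146). That list had a median of 0.57, and Mir99ahg had 1.42 FPKM in the knockout group and 2.24 FPKM in the wild-type group without a call.

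In the list of small nucleolar RNA hosts 1 of 14 tested genes was called, Snhg6, beside 7.54% of all tested genes. Host RNAs are spliced to release small RNAs that guide the modification of ribosomal RNA, and many carry an oligopyrimidine start like that of ribosomal protein genes. This description does not cover Rmrp, a member of the list that the table labels a ribozyme. Rmrp had 8.04 FPKM in the knockout group and 4.57 FPKM in the wild-type group and was not called. Snhg6 (chromosome 1, 9941959 to 9944118, minus strand) had 28.9 FPKM in the knockout group and 41.3 FPKM in the wild-type group. It fell by 0.51 on the log2 scale (q = 0.0107 in the authors' deposited table), and it shares its interval with the row of its small RNA Snord87. In release M21 Snhg6 overlaps a coding gene on the opposite strand, and their reads cannot be told apart there. The nearest tested coding row, Sgk3, lies 7.79 kb from the deposited interval of Snhg6. Sgk3 had 1.18 FPKM in the knockout group and 1.70 FPKM in the wild-type group and was not called. Epb41l4aos had 8.23 FPKM in the knockout group and 11.8 FPKM in the wild-type group (log2 fold change -0.52), and the authors' deposited table gives q = 0.117, above the threshold. Snhg20 stood at 10.8 FPKM in the knockout group and 8.74 FPKM in the wild-type group. Snhg12, with 20.6 FPKM in the knockout group and 21.2 FPKM in the wild-type group, and Snhg18, with 14.9 and 15.4 FPKM, had log2 fold changes of -0.04 each. Of the 14 tested genes of the list, of which 5 are lincRNA genes, the authors' deposited table called Snhg6 lower and none higher. The list median was -0.0037 on the log2 scale, beside -0.03 over all tested genes.

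Of the called lincRNA genes, 1810008I18Rik had the lowest log2 fold change. It is a gene with 1 annotated exon in its longest transcript of 2419 bases (chromosome 7, 65803111 to 65806449, plus strand), and no role is known for it. Its level was 17.5 FPKM in the knockout group and 28.7 FPKM in the wild-type group. It fell by 0.71 on the log2 scale, with q = 0.00152 in the authors' deposited table, and it does not share its interval. The nearest tested coding gene by the deposited intervals was Pcsk6, 54.6 kb away. Pcsk6 had 6.59 FPKM in the knockout group and 7.14 FPKM in the wild-type group and was not called.

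Other genes that carry the same clone prefix had lower values too. RIKEN gave the prefix 1810 to clones of a pancreas library, and 7 of the lincRNA genes bear it. The values of 6 of the 7 were lower in the knockout group, with log2 fold changes between -0.71 and -0.38. Lower values were held by 32 of the 84 lincRNA genes with a fold change and by 6312 of 11441 tested genes with one. Of the 7, the authors' deposited table called 1, 1810008I18Rik, lower and none higher. Over all tested genes 3.35% were called lower. The others with lower values were 1810020O05Rik (1.13 FPKM in the knockout group and 1.73 FPKM in the wild-type group), 1810007C17Rik (0.909 and 1.25 FPKM), 1810044D09Rik (3.43 and 4.62 FPKM), 1810063I02Rik (9.54 and 12.7 FPKM) and 1810007D17Rik (1.36 and 1.76 FPKM). The 7th, 1810058I24Rik, had 13.3 FPKM in both groups. The median log2 fold change of the 7 was -0.43, beside 0.20 for the 78 other lincRNA genes and 0.08 for the 34 other lincRNA genes with a RIKEN clone name.

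Among noncoding genes of other biotypes with the prefix, 7 of 9 had the lower value in the knockout group, with a median of -0.59. The authors' deposited table called 1 of them, 1810010K12Rik, which fell to 22.2 FPKM in the knockout group, against 33.7 FPKM in the wild-type group (q = 0.00152). That is 1 of 9, beside 3.35% of all tested genes called lower. The 15 protein-coding genes with the prefix had a median of 0.02, with 2 called higher and none lower in that table. Over all protein-coding genes 4.35% were called higher and 3.57% lower. The group of genes with the prefix was formed after the values were seen and has no test. Among 7 tested acinar markers, the authors' deposited table called Ptf1a and Pnlip lower and none higher, beside 3.35% of all tested genes called lower. The summed level of these markers was 129320 FPKM in the knockout group and 131698 FPKM in the wild-type group, and none was listed at 0. That sum holds values that went in opposite directions. Pnlip had 7662 FPKM in the knockout group and 15748 FPKM in the wild-type group, and Cel, not called, had 30443.5 and 22959.7 FPKM. Of the 7 markers, 2 had the higher value in the knockout group. Ctrb1, Cela2a and Amy2a5, also on the list, were not among the tested genes. The part of acinar markers in the values of the 1810 genes was not tested.

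**Figure D3:**
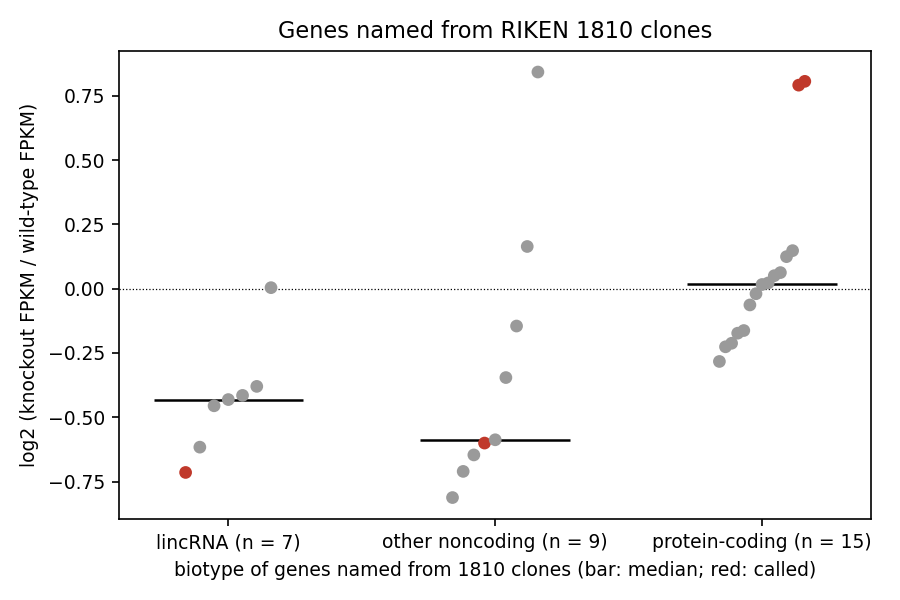
Log2 of knockout over wild-type FPKM for genes named from RIKEN 1810 clones, by biotype (7 lincRNA genes, 9 other noncoding genes, 15 protein-coding genes). Each point is a gene, red points are called in the authors' deposited table, and bars are medians, at -0.43, -0.59 and 0.02.

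The other called genes were of low abundance. AW112010, an RNA induced in immune cells of the mouse (chromosome 19, 11047612 to 11055808, minus strand), had 3.19 FPKM in the knockout group and 1.92 FPKM in the wild-type group. It rose 1.66-fold (q = 0.0177 in the authors' deposited table). Its nearest coding gene, Ccdc86, had 1.69 FPKM in the knockout group and 2.09 FPKM in the wild-type group and was not called. Macrophage markers were called higher in 8 of 9 genes in the same knockout group, beside 4.2% of all tested genes. Their summed level was 121 FPKM in the knockout group and 68.0 FPKM in the wild-type group. B and plasma cell markers were called higher in 1 of 2 tested genes (6.28 FPKM summed in the knockout group and 2.52 FPKM in the wild-type group). Of the T cell markers, Tcf7 was the only tested gene and was not called, with 0.821 FPKM in the knockout group and 1.61 FPKM in the wild-type group. None of these markers was listed at 0, and their part in AW112010 and in the blood cell host Mir142hg was not tested.

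Gm4419 (chromosome 12, 21417323 to 21421064, plus strand) had 1.17 FPKM in the knockout group and 0.662 FPKM in the wild-type group and rose 1.77-fold (q = 0.00283 in the authors' deposited table). It is an antisense gene in release M21 and overlaps Ywhaq, the gene of a 14-3-3 adaptor protein, on the opposite strand. Ywhaq had 5.28 FPKM in the knockout group and 5.12 FPKM in the wild-type group and was not called. Cep83os (chromosome 10, 94671025 to 94688576, minus strand) had 0.899 FPKM in the knockout group and 1.24 FPKM in the wild-type group and fell by 0.46 on the log2 scale (q = 0.0477 in the authors' deposited table). It starts 78 bases from Cep83, which encodes a protein of the distal appendages of centrioles. Cep83 had 1.48 FPKM in the knockout group and 1.39 FPKM in the wild-type group and was not called. All rows of the table exceed 1 FPKM in at least 1 genotype, and Mirg, Gm4419 and Cep83os exceed it in 1 genotype only. These 3 genes are in the table through the group in which they are higher, while the other 4 called genes exceed 1 FPKM in both groups.

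Other marker lists differed between the groups as well. Over all tested genes 4.2% were called higher and 3.35% lower. Fat cell markers were called higher in 5 of 6 genes (106 FPKM summed in the knockout group and 40.5 FPKM in the wild-type group), endothelial markers in 3 of 6 (62.3 and 46.8 FPKM) and duct markers in 1 of 5 (103 and 93.1 FPKM). Smooth muscle markers were called lower in 5 of 5 genes, with 16.7 FPKM in the knockout group and 44.3 FPKM in the wild-type group. The only tested marker of neurons and glia, Uchl1, was not called. None was listed at 0, and their part in the called lincRNA genes was not tested.

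**Figure D4:**
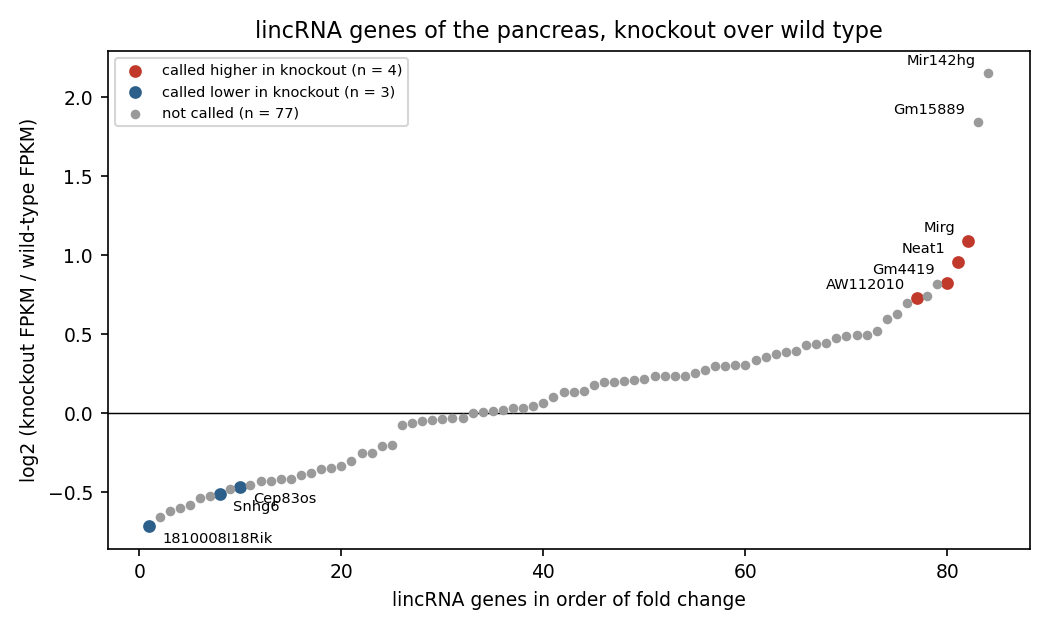
Log2 of knockout over wild-type FPKM for the 84 lincRNA genes with a fold change, in rising order; red points were called higher (4), blue points called lower (3) and grey points not called (77) in the authors' deposited table. Mir142hg and Gm15889 have the largest values without being called.

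The remaining 78 lincRNA genes were not called. Of these, 10 had an unadjusted p under 0.05 in the authors' deposited table, with 8 higher and 2 lower in the knockout group. 1700020I14Rik, known as Cyrano and conserved among vertebrates, belongs to them, with 6.76 FPKM in the knockout group and 5.01 FPKM in the wild-type group (log2 fold change 0.43). So do 1700086L19Rik (1.11 FPKM in the knockout group and 0.633 FPKM in the wild-type group), Gpr137b-ps (4.14 and 3.35 FPKM) and 9530082P21Rik (1.12 and 0.856 FPKM). Without Mir142hg and Gm15889 the uncalled genes had log2 fold changes between -0.66 and 0.82, and 15 of them lay within 0.1 of 0. Gm15889 had 9.56 FPKM in the knockout group and 2.66 FPKM in the wild-type group with q = 0.662 in the authors' deposited table. It shares its interval with Herpud1, a gene of endoplasmic reticulum degradation with 213 FPKM in the knockout group and 314 FPKM in the wild-type group, which was called lower. Among the 84 lincRNA genes with a fold change, 3 differed by at least 2-fold (Mir142hg, Gm15889 and Mirg), and 1 of the 3 was called. Bvht, first described in heart development, had 1.79 FPKM in the knockout group and 1.28 FPKM in the wild-type group. The list of cytoplasmic and growth-linked RNAs, which holds Bvht and 1700020I14Rik, had 5 tested genes. Of these, the authors' deposited table called 0 by Cuffdiff, beside 7.54% of all tested genes. At an unadjusted p under 0.05 there was 1 of the 5, beside 17.5% of all tested genes, and the list median was 0.28.

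Several further members had nearly equal values in both groups. Gm42418, which lies with Gm26917 in a stretch of chromosome 17 that carries ribosomal RNA sequence, had 16.4 FPKM in the knockout group and 17.1 FPKM in the wild-type group. Gm26917 had 2.66 FPKM in the knockout group and 2.60 FPKM in the wild-type group. Gm23925, a gene of 132 bases that shares its interval with 4 rows, had 22.4 FPKM in the knockout group and 22.3 FPKM in the wild-type group. Gm29233, unlike these, was listed at 0 in the knockout group and had 1.502 FPKM in the wild-type group, and the authors' deposited table gives it q = 0.518. A value listed at 0 can be a failed estimate, and no fold is given.

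LincRNA genes were expressed at lower levels than coding genes. Their median was 2.02 FPKM in the knockout group and 1.89 FPKM in the wild-type group, while protein-coding genes had medians of 4.80 FPKM in the knockout group and 4.89 FPKM in the wild-type group. Summed over the 85 genes the level was 642 FPKM in the knockout group and 537 FPKM in the wild-type group, or 0.0951% and 0.0822% of the FPKM of all tested genes. Without Neat1 these sums were 454 FPKM in the knockout group and 440 FPKM in the wild-type group. Neat1 and Malat1 together made up 40.4% of the summed lincRNA level in the knockout group and 29.0% in the wild-type group. Above 10 FPKM there were 13 lincRNA genes in the knockout group and 14 in the wild-type group.

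As a class, lincRNA genes had a median log2 fold change of 0.14, beside -0.04 for protein-coding genes, 0.01 for 124 antisense genes and 0.03 for 85 processed transcripts. Of the 84 genes with a fold change, 52 had the higher value in the knockout group and 32 in the wild-type group. The share higher in the knockout group was 61.9%, beside 44.8% over all tested genes with a fold change. The median was 0.01 over the 21 genes that reached 5 FPKM in the knockout or the wild-type group, and among the 49 that do not share their interval it was 0.06. By level, the authors' deposited table called 3 of 42 lincRNA genes under 2 FPKM in both groups, 1 of 22 between 2 and 5 FPKM and 3 of 21 at 5 FPKM or more (7.14%, 4.55% and 14.3%). Protein-coding genes had 7.27%, 6.51% and 8.99% in the same ranges. The median size of the log2 fold change, regardless of sign, was 0.34 for lincRNA genes and 0.17 for protein-coding genes; the difference in level stands beside it, and its part was not tested. Members above 1 FPKM in both groups numbered 64, with 10 above it only in the knockout group and 11 only in the wild-type group. Over all tested genes, 470 were above it only in the knockout group and 246 only in the wild-type group. For protein-coding genes these numbers were 343 and 172.

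The values of lincRNA genes and of their nearest coding genes were set side by side. For each lincRNA gene the nearest tested coding row was taken by the gap between the deposited intervals. Of the 85 genes, 17 share or overlap the interval of that neighbour. In the other 68 pairs, with a median gap of 12.8 kb and 66 different neighbours, the log2 fold changes had the same sign in 37 pairs. Pearson's r across these pairs was 0.28 and Spearman's rho 0.16, and without Mir142hg r was 0.38. Dlk1, with the largest log2 fold change of the neighbours (1.08), enters with both Meg3 and Mirg, and r without Dlk1 is not given. The coefficients are descriptions across genes measured in the same libraries, and adjacent genes can share reads. The nearest coding gene was called in the authors' deposited table for 8 of the 85 lincRNA genes, with Dlk1 counted for both Meg3 and Mirg, beside 7.92% of all protein-coding genes. Among the called lincRNA genes, Mirg was the only one whose nearest coding gene, Dlk1, was called as well. The deposited interval of Frmd8 lies 0.144 kb from that of Neat1. In release M21 these 2 genes lie further apart, with Neat1 ending at 5845478 and Frmd8 starting at 5849702. Frmd8 had 1.71 FPKM in the knockout group and 1.00 FPKM in the wild-type group and missed the threshold (q = 0.0533 in the authors' deposited table).

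Among uncalled lincRNA genes, Gm12082 lies 37.4 kb from Efemp1, an extracellular matrix gene that was called higher (9.18 FPKM in the knockout group and 5.23 FPKM in the wild-type group). The deposited interval of 1810007D17Rik lies 40.6 kb from that of Pnlip, the pancreatic lipase gene. In release M21 these 2 genes lie closer, with 1810007D17Rik ending at 58629753 and Pnlip starting at 58652498 on chromosome 19. Pnlip was called lower (7662 FPKM in the knockout group and 15748 FPKM in the wild-type group). 2310001H17Rik, with 2.80 FPKM in the knockout group and 2.06 FPKM in the wild-type group, lies 21.9 kb from Clec2d, the gene of a lectin-like receptor ligand, which was called higher (7.24 FPKM in the knockout group and 5.42 FPKM in the wild-type group). In 17 lincRNA genes the start lies within 1000 bases of the start of a coding gene on the opposite strand. The authors' deposited table called 2 of these 17, Gm4419 higher and Cep83os lower, beside 8.24% of all 85 lincRNA genes and 7.54% of all tested genes, and their median log2 fold change was -0.03, beside 0.14 for the rest.

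**Figure D5:**
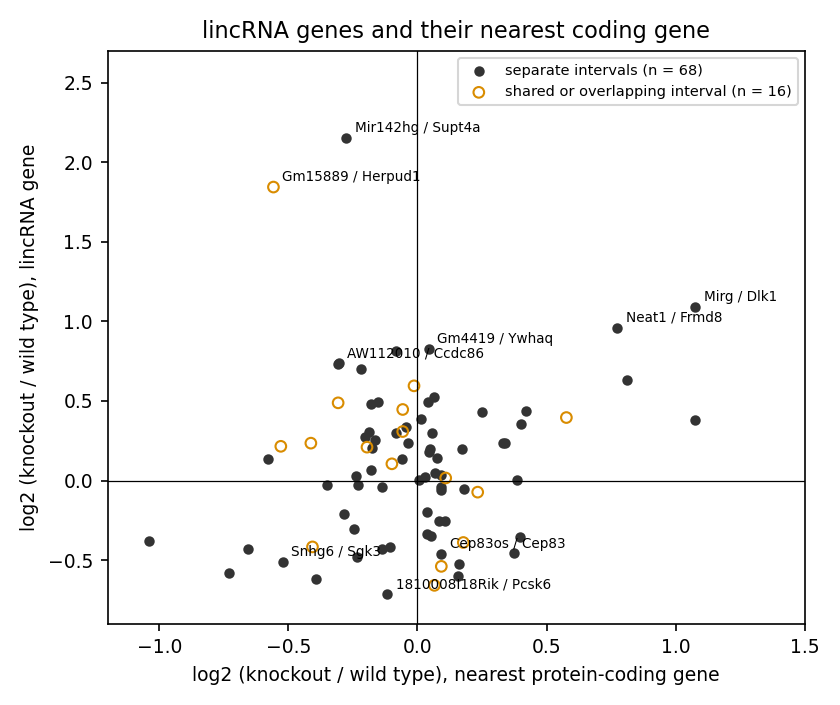
Log2 of knockout over wild-type FPKM of lincRNA genes (vertical axis) against that of the nearest tested protein-coding gene (horizontal axis). Black points are the 68 pairs with separate deposited intervals and open circles 16 pairs that share or overlap an interval; labels name called lincRNA genes, Mir142hg and Gm15889 with their neighbours. Of the called genes, Neat1, Mirg and Gm4419 lie in the upper right, where both genes of a pair stand higher in the knockout group. Ywhaq, the neighbour of Gm4419, was nearly equal in both groups (5.28 FPKM in the knockout group and 5.12 FPKM in the wild-type group). Uncalled pairs, such as Gm12082 with Efemp1, lie there as well.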

How the data were processed

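RNA of 3 knockout and 3 wild-type pancreases was sequenced as single reads of 50 bases after poly(A) selection of 2.5 µg RNA (RNA integrity numbers 8.2 to 9.1), per the labels' protocols. The submitters' processing notes name the build GRCm38, Cuffdiff, Cufflinks 2.2.1 and STAR 2.5.1b. The annotation release, strand use, handling of multimapping reads and Cuffdiff's settings were not stated in the sources used. The authors deposited 1 FPKM value per genotype and, per the file headers, a Cuffdiff p-value and q-value per gene. Depth is unknown, so no interval or floor is given, and 0 columns hold single samples.

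LincRNA rows with a tested status were taken, and log2 ratios of the FPKM values were computed where both were at least 0.01; the deposited fold change column was not used. No test of differential expression was added, since the table holds 1 value per genotype: calls are the authors' q under 0.05 over the whole table. The recomputed Benjamini-Hochberg adjustment was checked on simulated data. Interval starts were shifted to count from 1. Gene positions are those of GENCODE M21, and sequences are those of RefSeq. Named genes are all called lincRNA genes, the 10 with the highest mean FPKM, the 10 uncalled with the smallest p, those listed at 0, the lincRNA members of the gene lists and the nearest coding gene of each; others were chosen after their values were seen. Members and lists were chosen with earlier results of these data known. Alternatives tried were other q thresholds, a 1.5-fold minimum, 5 FPKM, pseudocounts of 0.5 and 1 FPKM, centring, shared intervals left out and wider biotypes. Python 3.11.15, pandas 2.3.3 and numpy 2.4.6 were used.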

Additional observations from a re-analysis of the deposited data

Results flagged for a closer look

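Signals in rows that the authors did not test, and that enter no count above, were higher in the knockout group than in the wild-type group in 2 lincRNA genes. Gm29362 stood at 1.14 FPKM in the knockout group, against 0.00957 FPKM in the wild-type group, which counts as listed at 0. Gm38079 stood at 1.69 FPKM in the knockout group, against 1.43 FPKM in the wild-type group. Neither difference was tested, and the third lincRNA gene without a test, Gm14133, had 0.0237 FPKM in the knockout group and 1.11 FPKM in the wild-type group.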

How the results depend on the processing

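At q under 0.01, 2 lincRNA genes were called higher and 1 lower, in place of 4 and 3. With a 1.5-fold minimum 4 were higher and 1 lower. With at least 5 FPKM in either group 1 was higher and 2 lower. With shared intervals left out 2 were higher and 2 lower. Over the wider noncoding biotypes (296 genes) 8 were higher and 8 lower, in each direction a smaller share than over all tested genes. At q under 0.1 there were 5 lincRNA genes higher and 3 lower. With the adjustment recomputed over all tested genes or the chromosome 1 segment kept there were 4 and 3. For the settings other than the wider biotypes, the share of all tested genes called is not given. The median log2 fold change of 0.14 was 0.0966 and 0.0760 with pseudocounts of 0.5 and 1 FPKM, 0.00518 with at least 5 FPKM, 0.168 after centring on all tested genes, 0.0641 without shared intervals and 0.0507 over the wider biotypes; smaller values follow by construction from a pseudocount, and otherwise the cause was not tested. The largest folds of named genes depend on the pseudocount: with 0.5 and 1 FPKM the log2 fold change of Mir142hg was 1.26 and 0.90, in place of 2.15, and that of Mirg 0.68 and 0.50, in place of 1.09. A pseudocount cannot turn a direction, so the directions kept under it say nothing about stability. No paired analysis was possible because the table holds 1 value per genotype, and for the same reason leaving out single mice was not run. Depth and the spread between mice are unknown, so how precise each level is cannot be given.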
